A study of Mus musculus with 6 samples.

Results

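The 38 genes described here are imprinted genes, and hosts of imprinted genes, from 20 loci of the mouse genome outside the Snrpn domain. They come from a named list, not from a cut on measured values, but it was chosen with earlier results of these data known. They are 38 of the 49943 genes of the RefSeq table for the build GRCm38.p6 (mm10). A peak was assigned to a gene if it overlapped the gene's span widened by 2000 bp on each side. Peaks within 2000 bp of either end of a gene are called end peaks, and the rest, inside the gene, are called body peaks. In short genes the end windows cover the whole gene, so each peak there is an end peak by definition. This holds for H19, Cdkn1c, Phlda2, Nnat, Mcts2 and Nap1l5.

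Methylated DNA was captured with a methyl-binding-domain protein and sequenced (MBD-seq) from the lungs of 3 transgenic and 3 wild-type mice, all aged 12 to 16 months. The transgenic mice carried SPC-DNMTdelta3B/DG, a construct that puts a variant of the de novo DNA methyltransferase DNMT3B under the promoter of the surfactant protein C gene, which is active in alveolar type II cells. The genotype of transgenic replicate 2 is spelled SPC-DNMTdeltaB/DG in the labels. More than 1 founder line existed, and the labels give neither the line nor the sex of each mouse. The DNA came from whole lung, so a change within alveolar type II cells and a change in the share of these cells cannot be told apart.

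An imprinted gene is expressed mainly from the copy inherited from 1 parent. At most imprinted loci a differentially methylated control region, set in the egg or the sperm, is methylated on 1 parental copy and kept so in body tissues, often at a CpG-rich promoter that would otherwise be free of methylation. A peak list holds no information on the parental copy, so a peak shows that methylated DNA was captured there, not that the methylation was parent-specific.

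Promoter sequences of 6 genes show the DNA at captured promoters and, for H13, at a promoter with no peak. In each, RefSeq's 300 bases run from 250 before to 50 after the annotated start, 5′ to 3′ on the gene's strand in GRCm38.p6, and capitals mark CpG dinucleotides, the sites that carry the methylation. Mcts2 lies at chr2:152686898-152687197 on the plus strand, and its host gene H13 starts at chr2:152669211-152669510 on the plus strand. Zrsr1 lies at chr11:22971755-22972054 (plus strand), Plagl1 at chr10:13090582-13090881 (plus strand), Nap1l5 at chr6:58907077-58907376 (minus strand) and an internal start of Gnas at chr2:174327518-174327817 (plus strand).
Mcts2: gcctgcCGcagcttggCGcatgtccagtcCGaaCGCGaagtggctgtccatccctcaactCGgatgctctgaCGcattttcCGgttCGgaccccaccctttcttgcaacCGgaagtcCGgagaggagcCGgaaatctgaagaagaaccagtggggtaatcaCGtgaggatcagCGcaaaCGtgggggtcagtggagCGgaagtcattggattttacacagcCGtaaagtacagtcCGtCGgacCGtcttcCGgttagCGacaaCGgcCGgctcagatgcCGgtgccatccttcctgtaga
Zrsr1: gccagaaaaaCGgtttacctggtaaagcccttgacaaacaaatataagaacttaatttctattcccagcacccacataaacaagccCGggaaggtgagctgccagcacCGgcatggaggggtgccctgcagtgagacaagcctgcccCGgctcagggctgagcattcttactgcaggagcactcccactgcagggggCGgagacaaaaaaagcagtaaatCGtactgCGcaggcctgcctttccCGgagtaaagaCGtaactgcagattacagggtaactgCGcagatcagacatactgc
Plagl1: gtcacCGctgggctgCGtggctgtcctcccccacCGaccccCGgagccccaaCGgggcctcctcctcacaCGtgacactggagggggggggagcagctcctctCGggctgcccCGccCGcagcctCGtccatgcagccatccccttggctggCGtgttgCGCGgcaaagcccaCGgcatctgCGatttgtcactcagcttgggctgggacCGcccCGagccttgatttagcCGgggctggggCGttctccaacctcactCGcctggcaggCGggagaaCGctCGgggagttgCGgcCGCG
Nap1l5: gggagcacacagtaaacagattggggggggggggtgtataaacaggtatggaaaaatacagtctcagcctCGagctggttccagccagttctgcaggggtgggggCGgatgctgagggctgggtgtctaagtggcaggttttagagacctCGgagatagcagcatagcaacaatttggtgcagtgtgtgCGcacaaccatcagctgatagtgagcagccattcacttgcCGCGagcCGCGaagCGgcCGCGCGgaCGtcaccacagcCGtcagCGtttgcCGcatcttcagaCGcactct
Gnas: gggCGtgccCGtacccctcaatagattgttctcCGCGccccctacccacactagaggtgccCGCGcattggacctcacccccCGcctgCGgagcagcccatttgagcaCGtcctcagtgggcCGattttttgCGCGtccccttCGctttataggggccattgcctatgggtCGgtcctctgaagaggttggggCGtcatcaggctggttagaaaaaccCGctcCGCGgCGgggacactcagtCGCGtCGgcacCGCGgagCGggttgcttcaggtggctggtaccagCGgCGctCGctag
H13: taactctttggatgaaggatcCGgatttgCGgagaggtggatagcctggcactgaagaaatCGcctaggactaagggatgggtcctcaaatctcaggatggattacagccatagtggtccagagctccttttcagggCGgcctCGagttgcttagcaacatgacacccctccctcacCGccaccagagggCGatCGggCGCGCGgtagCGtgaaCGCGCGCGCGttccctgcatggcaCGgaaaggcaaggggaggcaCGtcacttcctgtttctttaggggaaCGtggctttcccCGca
The Mcts2 promoter, with 25 CpGs, lay under a peak in all 6 lists. Those of Zrsr1 (10 CpGs), Plagl1 (26 CpGs), Nap1l5 (17 CpGs) and Gnas (28 CpGs) lay under a peak in 5 lists. The list without one was wild-type replicate 1 for Zrsr1 and wild-type replicate 3 for the other genes. The H13 promoter, with 21 CpGs, is shown for contrast because no list had a peak on it.

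The 6 peak lists differed in size. They held 120349, 116352 and 78952 peaks in transgenic replicates 1, 2 and 3, against 60131, 111211 and 30640 peaks in wild-type replicates 1, 2 and 3. The wild-type replicate 2 list was thus close in length to those of transgenic replicates 1 and 2, and the other wild-type lists were the shortest. Read totals were not used here, so depth is unknown, and the part of list length in each group difference was not tested.

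End peaks were more frequent at imprinted genes than at genes at large in each library. Of the 38 genes, 31, 28 and 24 had an end peak in transgenic replicates 1, 2 and 3, against 23, 29 and 11 in wild-type replicates 1, 2 and 3. As a share this was 81.6%, 73.7% and 63.2% in the transgenic lists, against 60.5%, 76.3% and 28.9% in the wild-type lists. Among all 49943 genes the share was 38.7%, 37.7% and 27.2% in the transgenic lists, against 21.0%, 37.0% and 9.29% in the wild-type lists. Protein-coding genes had shares of 30.0% to 42.5% in the transgenic lists, against 10.4% to 41.2% in the wild-type lists, below the imprinted genes of the same list each time. Any peak, at an end or in the body, was present at 38, 37 and 37 imprinted genes in the transgenic lists and at 36, 38 and 25 in the wild-type lists.

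**Figure D1:**
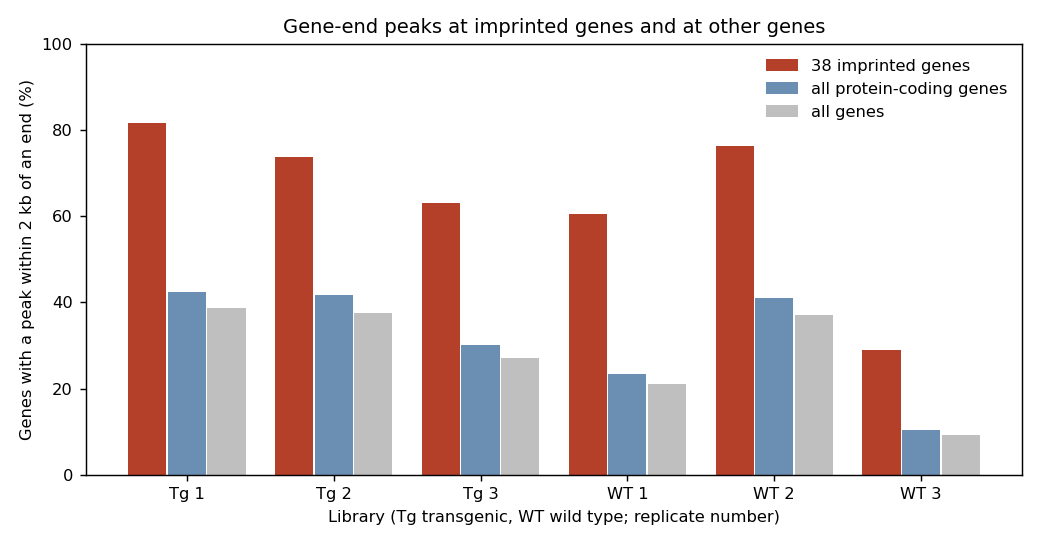
Percent of genes with at least 1 end peak in each library, transgenic replicates at the left and wild-type replicates at the right, for the 38 imprinted genes, all protein-coding genes and all genes. The imprinted bar is the tallest in each of the 6 libraries, from 28.9% in wild-type replicate 3 to 81.6% in transgenic replicate 1.

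An end peak was present in all 6 lists at 10 imprinted genes, which is 26.3% of the 38, where 6.47% of all genes and 7.16% of protein-coding genes had one. These genes were H19, Kcnq1ot1, Cdkn1c, Peg10, Sgce, Peg13, Gnas, Zrsr1, Inpp5f and Mcts2. Peg10 and Sgce share their end region, so the 10 genes do not stand for 10 separate regions. The H19 peaks lay in more than 1 region, none of them with a peak in all 6 lists. In wild-type replicate 1 H19 counted through 120 bp of a peak at the edge of its window. Where 1 merged region had to hold a peak in all 6 lists, the number of genes was 9. Without wild-type replicate 3 an end peak in each remaining list was present at 19 of the 38, where 14.9% of all genes had one. At the other extreme, 5 imprinted genes, Zim1, Blcap, Commd1, Rian and Herc3, had no end peak in any list, where 51.8% of all genes and 47% of protein-coding genes had none. Blcap, Commd1 and Herc3 are the hosts of imprinted genes nested in their introns. No imprinted gene lacked a peak altogether, where 37.7% of all genes and 24.3% of protein-coding genes did. Long genes have more room for a peak, and the genes were not matched by length in this comparison.

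The end peaks of imprinted genes merged across lists into 55 regions, with a median width of 563 bp. Of these, 8 were present in all 6 lists (14.5%) and 15 in 1 list. Merged end regions of all genes, 29820 in number, had a median width of 475 bp, and 9.55% of them were present in all 6 lists. The body peaks of imprinted genes merged into 180 regions, of which 14 (7.78%) were present in all 6 lists and 52 in 1 list. More regions thus lay inside gene bodies than at gene ends, and a smaller share of them recurred in all lists. Over all 165995 merged regions of the genome 10.9% were present in all 6 lists.

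The RefSeq promoter table holds 43 promoters for 29 of the 38 genes, and promoters were classed by CpG count. Of 12 CpG-rich promoters (20 or more CpGs in 300 bases) of imprinted genes, 5 lay under a peak in 5 or 6 lists (41.7%), against 0.747% of the 8701 CpG-rich promoters in the table. The 5 were those of Mcts2, Plagl1 and Igf2r and a pair of near-identical starts of Gnas. Of 21 promoters with 7 to 19 CpGs, 7 lay under a peak in 5 or 6 lists (33.3%), against 4.27% of 8415 such promoters. They were those of Nnat, Zrsr1, Nap1l5 and Mirg, a pair of near-identical starts of Mest, and a start of Commd1 that lies in the same region as that of Zrsr1. None of the 10 promoters with fewer CpGs did, against 0.527% of 15735. The 7 CpG-rich promoters of imprinted genes with no peak in any list belonged to Igf2, Phlda2, Zim1, Gnas, Grb10, H13 and Rasgrf1.

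**Figure D2:**
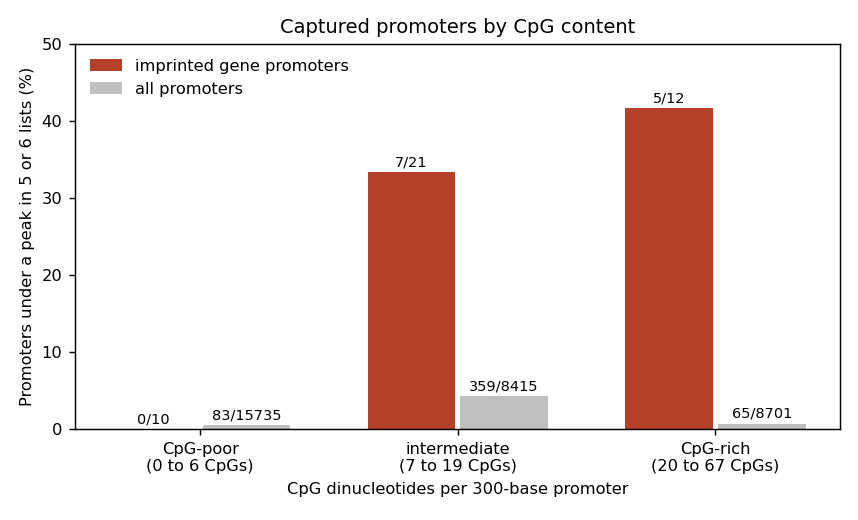
Percent of 300-base promoters under a peak in 5 or 6 of the 6 lists, by the number of CpGs in the promoter, for imprinted genes and for all promoters in the RefSeq table. The CpG-rich class shows 41.7% for imprinted genes and 0.747% for all promoters.

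Captured CpG-rich promoters also ranked differently by library. The score of a peak was set by the authors' peak caller, and its percentile here is taken within its own list, so it describes rank and not amount, and lists differ in length. Captured CpG-rich promoters of imprinted genes had a median percentile of 95.7, 91.4 and 87.6 in transgenic replicates 1, 2 and 3. In wild-type replicates 1, 2 and 3 it was 7.94, 91.0 and 95.7, and the last rests on the Mcts2 promoter. Over all captured CpG-rich promoters it was 65.8, 68.5 and 81.1 in the transgenic lists, against 52.0, 70.5 and 69.3 in the wild-type lists.

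The hexamer TGCCGC, the recognition core of ZFP57, a zinc-finger protein that keeps imprints methylated in the early embryo, was searched on both strands. It was present in 11 of the 43 promoters of imprinted genes (25.6%), in 11.6% of all promoters and in 27.8% of CpG-rich promoters. Within CpG-rich promoters of imprinted genes it was in 2 of the 5 that lay under a peak in 5 or 6 lists and in 2 of the 7 with no peak. Of the promoters printed, those of Mcts2 and Plagl1 hold 1 match each and that of Nap1l5 holds 2.

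Several imprinted genes are retrotransposed copies or short genes seated in an intron of a host gene. At these an end region of the nested gene was captured in 5 or 6 lists. Mcts2, Nap1l5 and Nnat are so short that any peak in them counts as an end peak, which is not so for their hosts. Mcts2, a copy of a gene for a translation factor, sits inside H13, which encodes a signal peptide peptidase. The Mcts2 end region, chr2:152686387-152687815, had a peak in all 6 lists and covered the promoter printed for that gene. It covered 1294, 1085 and 804 bp in transgenic replicates 1, 2 and 3, against 907, 1379 and 611 bp in wild-type replicates 1, 2 and 3. The groups overlapped, and the peak ranked at or above the 92nd percentile in each list, between 93.2 and 96.7 in the transgenic lists and between 92.3 and 95.7 in the wild-type lists. H13 itself had an end peak of 809 bp in transgenic replicate 1 alone. Its body also held peaks away from Mcts2, among them a region in 5 lists, chr2:152703520-152704462.

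Zrsr1, a relative of the small subunit of splicing factor U2AF, sits inside Commd1, a gene of copper metabolism. The Zrsr1 end region, chr11:22971798-22973206, had a peak in all 6 lists. It covered 1374, 1296 and 1246 bp in the transgenic lists, against 373, 1312 and 197 bp in wild-type replicates 1, 2 and 3. Its percentile was 98.2, 94.1 and 96.2 in the transgenic lists, against 37.6, 95.7 and 8.37 in the wild-type lists. Wild-type replicate 2 was thus at the transgenic level and the other wild-type libraries were low. Commd1 had 1 or 2 peaks in each list, Zrsr1's region among them, and none at its ends.

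Nap1l5, related to nucleosome assembly proteins, sits inside Herc3, a ubiquitin ligase gene. Its end region, chr6:58906421-58907335, covered 828, 915 and 819 bp in the transgenic lists, against 524, 820 and 0 bp in wild-type replicates 1, 2 and 3. The peak scored 748.8, 507.7 and 288.8 in the transgenic lists, against 79.93 and 371.3 in wild-type replicates 1 and 2. The groups overlapped through wild-type replicate 2. Herc3 had 3 peaks in each transgenic list and 1, 3 and 0 in the wild-type lists, all inside the gene. Besides the Nap1l5 region they lay at chr6:58843601-58844023 and chr6:58880161-58880760, each with a peak in 4 lists.

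Nnat, which encodes the small membrane protein neuronatin, sits inside Blcap. The region at its end, chr2:157559312-157560690, covered 1379, 845 and 714 bp in the transgenic lists, against 323, 1279 and 0 bp in wild-type replicates 1, 2 and 3. Its score was 543, 264.9 and 190.3 in the transgenic lists, against 57.1 and 329.8 in wild-type replicates 1 and 2, the lower of these near the lists' minimum of 50. Within Blcap the other captured region was chr2:157561501-157562063, with a peak of 563 bp in wild-type replicate 1 alone.

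**Figure D3:**
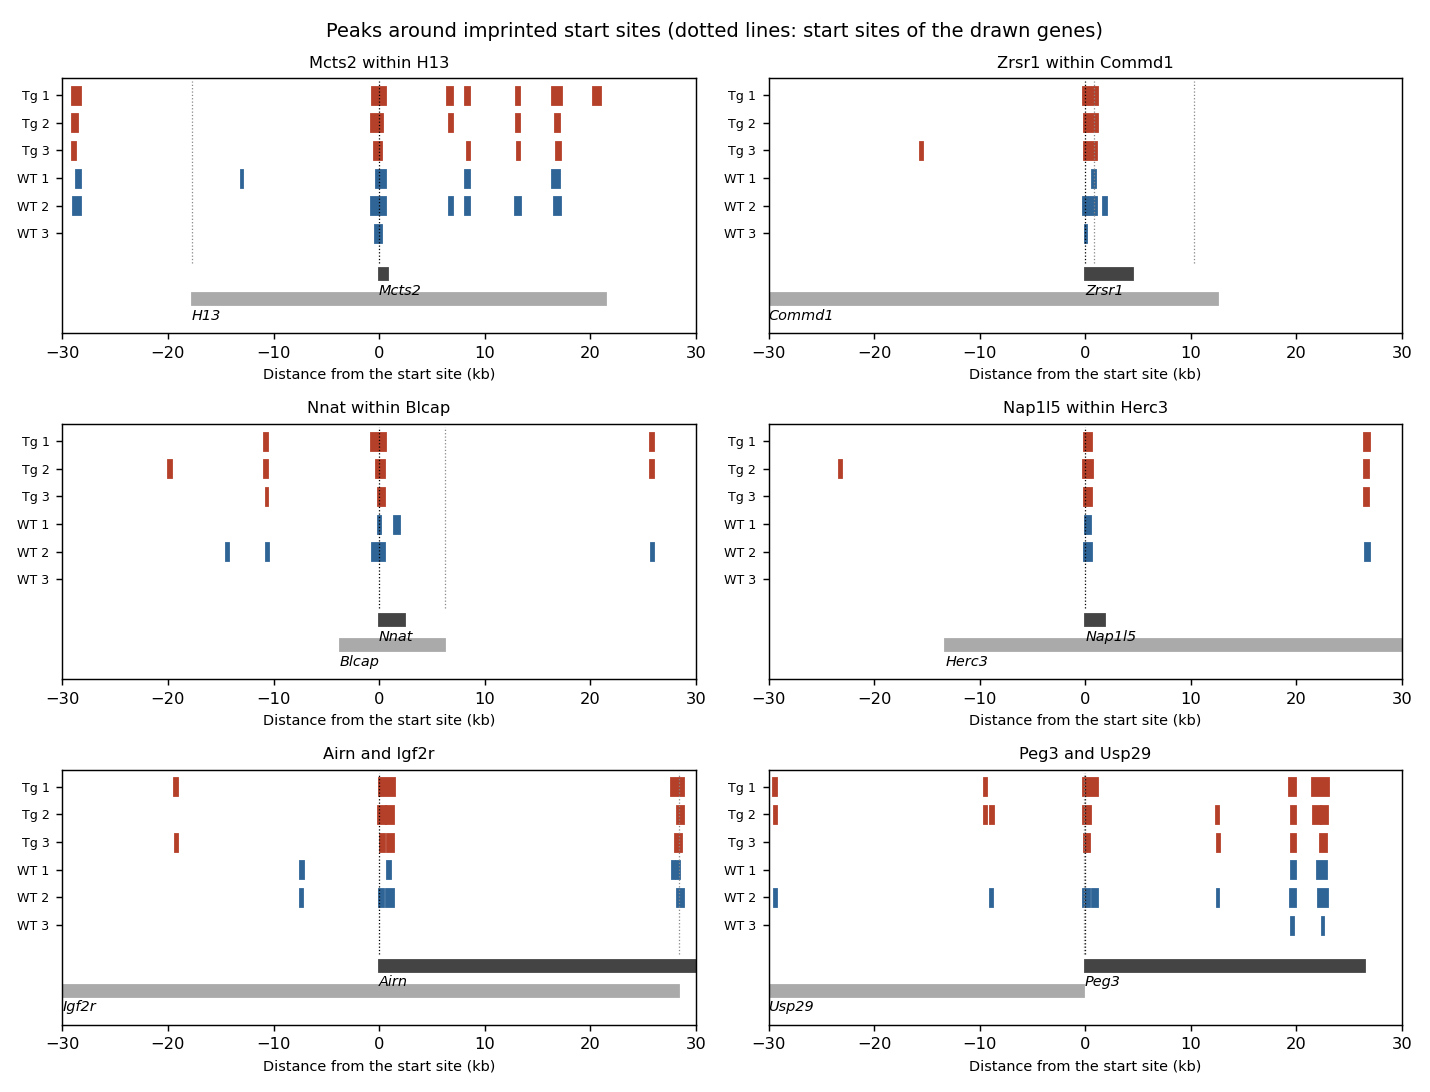
Peaks of each of the 6 lists around 6 nested, antisense or divergent gene pairs, transgenic libraries above wild-type libraries. Genes are drawn as bars, and position is the distance in kb from an annotated start of the named gene. At Mcts2 and Zrsr1 the merged region at that start has a peak in all 6 libraries. A peak of the region need not cover the start, as in wild-type replicate 1 at Zrsr1 (0.629 to 1.001 kb). At Nnat, Nap1l5 and Airn the region is absent from wild-type replicate 3.

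Peg13 is a noncoding RNA gene inside Trappc9, which encodes a subunit of a vesicle-tethering complex. The Peg13 region, chr15:72809144-72810994, had a peak in all 6 lists and covered 1851, 1487 and 1664 bp in the transgenic lists, against 855, 1676 and 198 bp in wild-type replicates 1, 2 and 3. Trappc9 is long and held the most peaks of the 38 genes, 41, 39 and 22 in the transgenic lists, against 18, 40 and 4 in the wild-type lists. All but 0 to 2 of them in each list lay in its body. Its body region at chr15:73057777-73058687 scored 1509, 780.6 and 696 in the transgenic lists, against 322.6, 678.8 and 218.8 in the wild-type lists. Its percentile was 98.98 or more in each list.

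Inpp5f encodes an inositol phosphatase, and a shorter imprinted transcript starts within it. Its end region, chr7:128609256-128610265, covered 1010, 855 and 830 bp in the transgenic lists, against 506, 891 and 593 bp in the wild-type lists. A body region, chr7:128687333-128688849, also had a peak in all 6 lists and covered 1297, 1393 and 1174 bp in the transgenic lists, against 386, 1509 and 248 bp in the wild-type lists. In both regions the groups overlapped through wild-type replicate 2.

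At 3 loci the control region is the promoter of a noncoding RNA, or lies near one, that silences protein-coding neighbours on the same chromosome. Kcnq1ot1, such an RNA, had exactly 1 peak in each list, and that region was chr7:143294975-143296753. It covered 1770, 1748 and 1659 bp in the transgenic lists, against 466, 1770 and 198 bp in wild-type replicates 1, 2 and 3. The score was 829.3, 518.9 and 280.0 in the transgenic lists, against 112.1, 465.5 and 88.48 in the wild-type lists. Its neighbour Phlda2, a restrainer of placental growth, had 366, 0 and 74 bp covered at its ends in the transgenic lists, against 0, 68 and 0 bp in the wild-type lists.

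Airn is an antisense RNA that silences Igf2r, whose product clears the growth factor IGF2. The Airn end region, chr17:12741252-12742785, covered 1498, 1417 and 1067 bp in the transgenic lists, against 394, 1259 and 0 bp in wild-type replicates 1, 2 and 3. The Igf2r promoter lay under a second region, chr17:12768971-12770220, also absent from wild-type replicate 3 only. The percentile of that region was 95.7, 91.4 and 84.8 in the transgenic lists, against 41.7 and 82.1 in wild-type replicates 1 and 2. A body region of Igf2r, chr17:12687536-12688877, had a peak in all 6 lists and scored 1013, 533.8 and 259.5 in the transgenic lists, against 215.9, 505.3 and 89.39 in the wild-type lists.

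The Gnas locus encodes the stimulatory G protein alpha subunit and several transcripts from alternative starts, with Nespas running antisense. The end region chr2:174283887-174286834, which also lies in the body of Nespas, was the widest of the lead regions. It covered 2948, 2102 and 1985 bp in the transgenic lists, against 668, 2856 and 250 bp in wild-type replicates 1, 2 and 3. A body region over internal starts, chr2:174326861-174328160, covered 1281, 1091 and 1241 bp in the transgenic lists, against 310, 1294 and 0 bp in the wild-type lists. That region contains the Gnas promoter printed with the others, and its percentile was 88.2, 90.8 and 87.6 in the transgenic lists, against 0.254 and 91.0 in wild-type replicates 1 and 2. Wild-type replicate 1 therefore had a peak there of nearly the lowest score in its list. A further region, chr2:174298307-174301088, had a peak in all 6 lists and covered 2758, 2676 and 2641 bp in the transgenic lists, against 474, 1954 and 295 bp in the wild-type lists. The CpG-rich Gnas promoter further along had no peak in any list. Nespas ends were covered by 0, 1506 and 0 bp in the transgenic lists, against 707, 1653 and 165 bp in the wild-type lists. The mean was thus lower in the transgenic lists (502 ± 870 bp) than in the wild-type lists (842 ± 753 bp, SD, n = 3 each), and the groups overlapped. Most of that coverage lay in chr2:174295039-174296691, with a peak in 3 lists.

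At divergent promoters 1 region serves a pair of genes. Peg10, a retrotransposon-derived gene needed in the placenta, and Sgce, which encodes epsilon-sarcoglycan, share chr6:4747295-4748935. It covered 1603, 1641 and 1417 bp in the transgenic lists, against 588, 1316 and 246 bp in wild-type replicates 1, 2 and 3. Each transgenic value lay above each wild-type value there, while the whole end window of Peg10 covered 1603, 1641 and 1748 bp in the transgenic lists, against 588, 1660 and 246 bp in the wild-type lists, which overlap. Peg3, a zinc-finger gene, and Usp29, of a ubiquitin protease family, share chr7:6729197-6730664. That region covered 1467, 809 and 571 bp in the transgenic lists, against 0, 1235 and 0 bp in the wild-type lists. A body region of Peg3, chr7:6710417-6711158, was present in all 6 lists, as was a body region of Zim1, a neighbouring zinc-finger gene, at chr7:6677004-6678194.

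Plagl1 encodes a zinc-finger transcription factor that restrains growth. Its end region, chr10:13090249-13091612, contains the promoter printed for that gene and covered 1364, 1039 and 1063 bp in the transgenic lists, against 414, 1169 and 0 bp in the wild-type lists. Its percentile was 95.8, 95.3 and 93.8 in the transgenic lists, against 7.94 and 95.9 in wild-type replicates 1 and 2. Slc38a4, an amino acid transporter gene, had an end region at chr15:97053932-97056095 that covered 1792, 1599 and 872 bp in the transgenic lists, against 0, 1500 and 0 bp in the wild-type lists. In Cdh15, which encodes the cadherin of muscle cells, the region chr8:122864663-122865675 covered 1013, 690 and 741 bp in the transgenic lists, against 0, 635 and 145 bp in the wild-type lists. Groups did not overlap in that Cdh15 region, while the whole end window of Cdh15 covered 1275, 506 and 193 bp in the transgenic lists, against 774, 1022 and 0 bp in the wild-type lists, which overlap.

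At some loci the most recurrent region lay in the gene body and not at an annotated end. Impact, which encodes a regulator of translation, had an end peak of 376 bp in transgenic replicate 2 alone. Its body region, chr18:12972633-12974717, had a peak in all 6 lists that covered 1984, 2085 and 1720 bp in the transgenic lists, against 1048, 1882 and 872 bp in the wild-type lists. The percentile there was 99.9, 99.6 and 99.7 in the transgenic lists, against 87.6, 99.7 and 96.3 in the wild-type lists, which puts it near the top of most lists. Grb10 encodes an adaptor that dampens insulin signalling and lies beside Ddc, the dopa decarboxylase gene. It had end peaks in transgenic replicate 1 (471 bp) and wild-type replicate 2 (288 bp) only. Its body region chr11:12025389-12027063, 908 bp from an internal RefSeq start, covered 1617, 1372 and 1320 bp in the transgenic lists, against 856, 1288 and 202 bp in the wild-type lists. The end window of Ddc was covered in transgenic replicate 1 alone, by 366 bp.

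Mest encodes an enzyme of the alpha/beta hydrolase family. Its lead end region had a peak in transgenic replicate 2 (522 bp) and in wild-type replicate 2 (772 bp). Another end region, chr6:30735148-30735916, had a peak in transgenic replicate 1 (736 bp) and in wild-type replicate 2 (769 bp). The region over its alternative start, chr6:30736584-30738931, was present in 5 lists and covered 2287, 1963 and 1128 bp in the transgenic lists, against 583, 1297 and 0 bp in the wild-type lists. The gene span thus placed the captured promoter inside the body.

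Igf2-H19, Dlk1-Meg3 and Rasgrf1 are the loci here whose control region is known to be methylated on the paternal copy. H19, a noncoding RNA, had end coverage of 1103, 596 and 421 bp in the transgenic lists, against 120, 809 and 346 bp in wild-type replicates 1, 2 and 3. Igf2, a fetal growth factor, had a peak in 5 lists in its end region, chr7:142667445-142668308, as did the H19 end region chr7:142576510-142577181, and the Igf2 region ranked higher by its median percentile. The Igf2 region covered 854, 827 and 704 bp in the transgenic lists, against 751, 776 and 0 bp in the wild-type lists, and apart from wild-type replicate 3 its percentile stayed between 91.9 and 98.4. Wild-type replicate 1, low at many loci, was at the 92.7 percentile here. Another H19 end region, chr7:142580001-142580793, covered 651, 461 and 0 bp in the transgenic lists, against 413, 784 and 0 bp in the wild-type lists. Its percentile was 21.6 and 30.7 in transgenic replicates 1 and 2, against 7.09 and 46.3 in wild-type replicates 1 and 2. None of these regions was matched to the control region.

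The Dlk1-Meg3 locus holds Dlk1, a membrane ligand related to the Notch ligands, the noncoding RNAs Meg3, Rian and Mirg, and Rtl1, a retrotransposon-derived gene. Its most recurrent end region, at Mirg, chr12:109734561-109735120, covered 473, 372 and 430 bp in the transgenic lists, against 424, 475 and 0 bp in the wild-type lists. Its percentile was between 25.8 and 57.9 in the transgenic lists, against 34.5 and 50.01 in wild-type replicates 1 and 2, lower than in most lead regions. Meg3 ends were covered by 1001, 0 and 0 bp in the transgenic lists, against 400, 359 and 0 bp in the wild-type lists. Dlk1 ends were covered by 495, 354 and 0 bp in the transgenic lists, against 401, 468 and 0 bp in the wild-type lists. The groups overlapped at both genes. A region in the interval between Dlk1 and Meg3, outside the 2000 bp windows and chosen after its values were seen, was chr12:109527200-109528629. It was present in all 6 lists and covered 1340, 1105 and 1023 bp in the transgenic lists, against 1061, 1279 and 169 bp in the wild-type lists. Rtl1 ends were covered by 951, 707 and 328 bp in the transgenic lists, against 400, 775 and 0 bp in the wild-type lists. Here too the groups overlapped. Rian, host of small nucleolar RNAs, had 6, 7 and 5 peaks in the transgenic lists, against 4, 3 and 0 in the wild-type lists, all in its body. MicroRNA hairpins within the spans of Meg3, Rtl1, Rian and Mirg were counted on either strand, so a hairpin need not belong to that gene's transcript. In the Rtl1 span peaks lay over 6, 6 and 5 of 15 hairpins in the transgenic lists, against 0, 6 and 1 in the wild-type lists. In the Rian span they lay over 2, 3 and 2 of 3 hairpins in the transgenic lists, against 2, 2 and 0 in the wild-type lists. The 1 hairpin in the Meg3 span lay under a peak in each transgenic list and in wild-type replicate 2. Of the 10 hairpins in the Mirg span peaks lay over 5, 4 and 3 in the transgenic lists, against 2, 4 and 2 in the wild-type lists. The share over all hairpins of the genome was not computed.

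Rasgrf1 encodes a Ras exchange factor. Its end region covered 440, 298 and 0 bp in the transgenic lists, against 384, 0 and 0 bp in the wild-type lists. Body regions at chr9:89994454-89995121 and chr9:89953627-89954338 were present in all 6 lists. A region 29513 bp from the gene, chr9:89879524-89879994, also chosen after its values were seen, had a peak in 4 lists. It scored 825.1, 432.3 and 202 in the transgenic lists, and 295.4 in wild-type replicate 2.

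**Figure D4:**
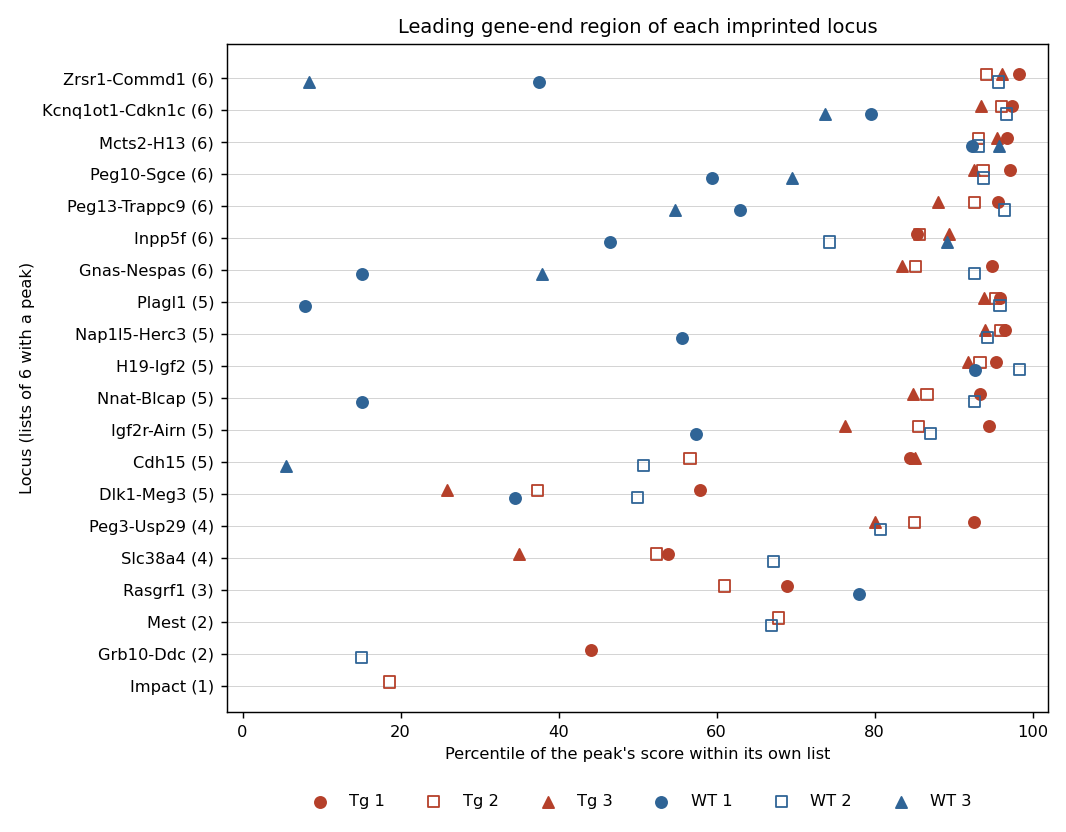
Within-list score percentile (horizontal axis) of the lead end region of each of the 20 loci (rows) in each library. Within a row transgenic points lie slightly above wild-type points, and a missing point means no peak. Most regions have high percentiles in the transgenic lists and in wild-type replicate 2, and the values of wild-type replicates 1 and 3 spread down to 7.94 and 5.54.

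Among the 20 lead end regions, 7 had a peak in all 6 lists: those of Kcnq1ot1, Peg10-Sgce, Peg13, Gnas, Zrsr1, Inpp5f and Mcts2. Over these 7 the mean coverage was 1693, 1459 and 1372 bp in transgenic replicates 1, 2 and 3, against 623, 1600 and 328 bp in wild-type replicates 1, 2 and 3. Their median percentile was 96.7, 93.2 and 92.6 in the transgenic lists, against 59.4, 93.8 and 69.6 in the wild-type lists. Of the 20 lead regions 12, 8 and 7 lay above the 90th percentile in the transgenic lists, against 2, 10 and 1 in the wild-type lists. Wild-type replicates 1 and 3, the shortest lists, were low and wild-type replicate 2 was among the transgenic libraries, so the wild-type libraries differed among themselves. The part of list length in it was not tested.

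Between the groups, the number of imprinted genes with an end peak averaged 27.7 ± 3.51 in transgenic lungs and 21.0 ± 9.17 in wild-type lungs (SD, n = 3 each), a difference of 6.67. The groups overlapped through wild-type replicate 2. Without wild-type replicates 1 and 3, an alternative added after seeing the data, the difference was -1.33. With the 30640 top-scoring peaks of each list, the numbers were 19, 17 and 18 in the transgenic lists, against 12, 17 and 11 in the wild-type lists, while the share of all genes was 10.9% to 11.7% in the transgenic lists, against 9.29% to 12.2% in the wild-type lists. In these lists of equal length transgenic replicate 2 and wild-type replicate 2 had the same number.

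End coverage in each transgenic library above that of every wild-type library was found at 1 imprinted gene, Cdkn1c, where 3.6% of all genes and 3.84% of protein-coding genes had it. Cdkn1c, at chr7:143458339-143461059, encodes a cyclin-dependent kinase inhibitor that restrains growth. At this short gene the end windows take in the whole gene. Its ends were covered by 2795, 1397 and 1955 bp in transgenic replicates 1, 2 and 3, against 518, 1237 and 496 bp in wild-type replicates 1, 2 and 3. The mean was 2049 ± 704 bp in transgenic lungs and 750 ± 422 bp in wild-type lungs (SD, n = 3 each). The 2-sided exact permutation p was 0.1, the smallest that 3 against 3 allows, and its Benjamini-Hochberg adjusted value over all genes was 1. Divided by the bp that each list covers in all, the groups overlapped at Cdkn1c. Among genes with any end peak, 1 of 33 imprinted genes showed this pattern, where 7.46% of all such genes did, so the count is not above the background. Without wild-type replicate 2 the pattern was met at 17 of the 38 imprinted genes, where 17.1% of all genes met it. Without transgenic replicate 3 it was met at 6 of the 38, where 12.6% of all genes met it. Leaving out transgenic replicate 2 gave 5 of the 38, where 5.42% did. Each is a larger share of the 38 than of all genes. All genes include the 51.8% with no end peak in any list, which cannot meet the pattern.

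Lower coverage in each transgenic library was found at 0 imprinted genes, where 0.002% of all genes, 0.00457% of protein-coding genes and 0.00415% of genes with an end peak had it. A peak in all transgenic lists and no wild-type list was found at 0 imprinted genes, where 0.841% of all genes and 0.886% of protein-coding genes had one. The opposite pattern was found at 0 imprinted genes and 0% of all genes. Of the 55 end regions of imprinted genes 4 had coverage in each transgenic library above each wild-type value and 0 had it below, where 6.91% and 0.0175% of all merged regions did. All 4 were among the 18 end regions present in 5 or 6 lists. Over all merged regions of that class 12.1% were higher, a smaller share than 4 of 18, and 0% lower. The difference in share rests on few regions and was not tested. The 4 were the Cdkn1c, Peg10-Sgce and Cdh15 regions and chr2:174344878-174345677 at the far end of Gnas. That Gnas region covered 800, 732 and 465 bp in the transgenic lists, against 284, 327 and 0 bp in the wild-type lists. Of 43 body regions of imprinted genes present in 5 or 6 lists, 5 were higher without overlap (11.6%) and 0 lower, which is near the 12.1% of all such regions. They lay in Usp29, Gnas, Grb10, Igf2r and Mirg, and the Gnas and Grb10 regions are the chr2:174298307-174301088 and chr11:12025389-12027063 regions described with those genes.

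**Figure D5:**
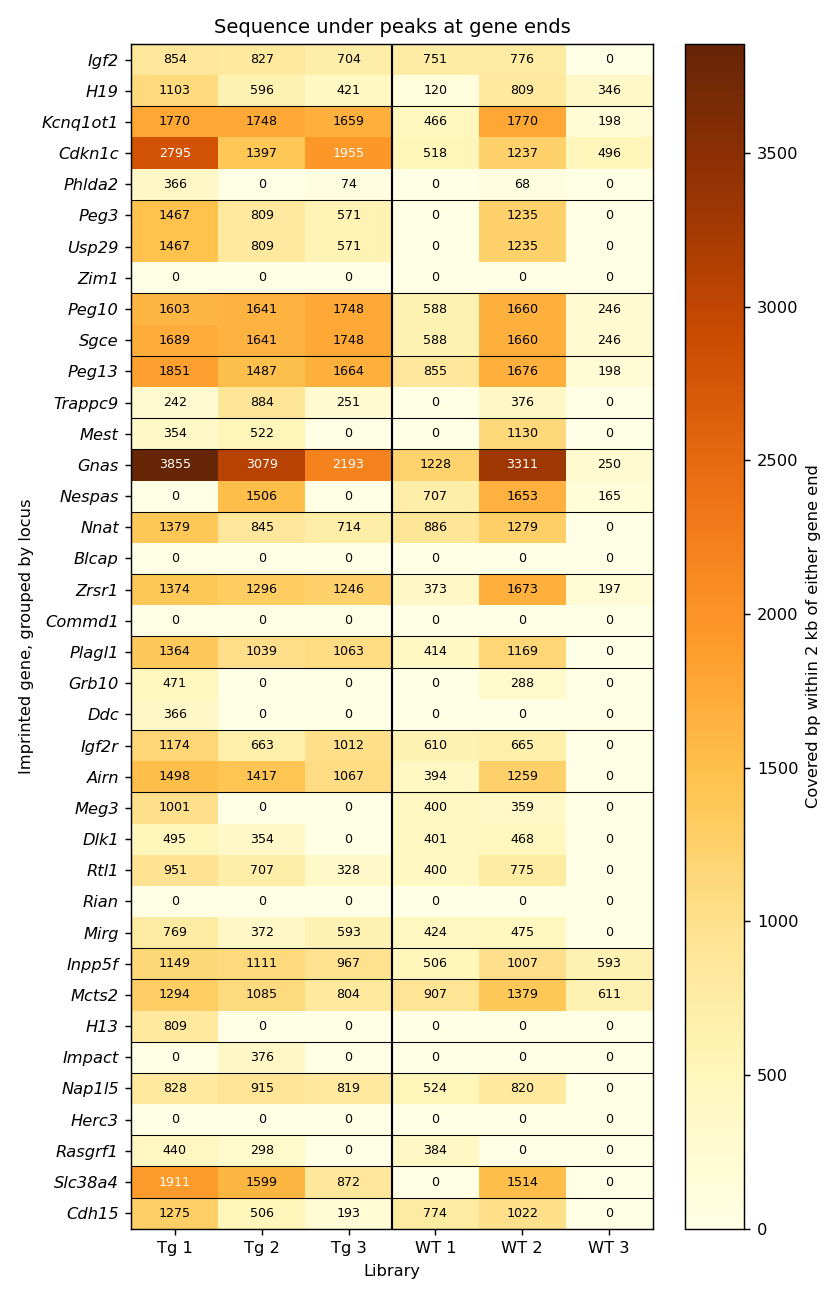
Base pairs covered by peaks at the ends of each of the 38 imprinted genes in each library, with the 3 transgenic libraries left of the 3 wild-type libraries. Wild-type replicate 3 is palest and wild-type replicate 2 resembles the transgenic columns, and Cdkn1c has its 3 transgenic values (1397 to 2795 bp) above its wild-type values (496 to 1237 bp).

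The authors' deposited table lists 407 regions that differ between the groups, and 0 of the 38 imprinted genes had one within 2000 bp, where 0.461% of all genes and 0.786% of protein-coding genes did. In the authors' deposited table the listed region nearest to any of these genes lay 91656 bp from Grb10, and had a log2 fold (transgenic over wild type) of 0.51 at FDR 0.0908. The next nearest in the authors' deposited table lay 163257 bp from Peg10, and had a log2 fold of -2.10 at FDR 0.0643.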

How the data were processed

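MBD-seq measured captured methylated DNA in the lungs of 3 transgenic and 3 wild-type mice. The labels call them biological replicates, and the titles gave each library's group and replicate number. Per the submitters' processing notes the authors used Bowtie, DiffBind and edgeR (versions not listed) and the build mm10. The deposited peak lists hold 1 list per library, with a score that is the authors' peak caller's own, at least 50 and not scaled between libraries. The caller and its settings were not given in the sources used here. For each differential region the log2 fold, p-value and FDR come from the authors' deposited table, whose largest FDR is 0.0996.

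Genes, starts and promoters are RefSeq's (GRCm38.p6), and Nespas was matched by synonym as Gnasas1. An overlap of 1 bp assigned a peak. Overlapping peaks of the 6 lists were merged into regions, and the lead region of a locus is the end region with peaks in most lists, ties by median percentile. Sample overlap was read directly and by an exact permutation test in Python 3.11.15 with scipy 1.17.1, adjusted over all 49943 genes, and the code was tested on simulated data. Alternatives were other windows, score selections, overlaps, scalings, a replicate block and leaving out each library. Depth is unknown, and peaks give no methylation level. The members and lists were chosen with earlier results of these data known.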

Additional observations from a re-analysis of the deposited data

How the results depend on the processing

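The 6.67 more imprinted genes with an end peak in transgenic lists were 13.3 with peaks scoring 96.3, the pooled median, or more, ranged from 1.67 to 10.7 when each library was left out in turn, and turned to -1.33 without wild-type replicates 1 and 3, an alternative chosen after seeing the data. The 10 genes with an end peak in all lists became 5 with equal numbers of top-scoring peaks and 1 with peaks at that score or more. They became 23 of the 38 without wild-type replicates 1 and 3, where 22.8% of all genes had such a peak. The number was 10 to 19 when each library was left out, 19 being without wild-type replicate 3. For the score selections the share of all genes with an end peak in all lists was not computed. The count with higher coverage in each transgenic library, 1 as reported, was 0 with a 1000 bp window, 3 with a 5000 bp window, 2 with top-scoring peaks, 3 above the median score and 2 where at least 50% of a peak had to lie in the window. The share of all genes was not computed under these settings, so a change in the count has no background there. That count was 1 to 17 when each library was left out. Of the 38 genes it was 17 without wild-type replicate 2 (against 17.1% of all genes). It was 5 of the 38 without transgenic replicate 2 (against 5.42%) and 6 of the 38 without transgenic replicate 3 (against 12.6%). Fewer samples make non-overlap easier to meet. The count with lower coverage, 0 as reported, was 0 to 1 when each library was left out and 1 after division by the bp covered by each list. It was 4 of the 38 without wild-type replicates 1 and 3, where 12.3% of all genes were lower. The count with peaks in transgenic lists only was 0 to 4, with 4 without wild-type replicate 2, and the count in wild-type lists only was 0 to 1. For these patterns the share of all genes was computed with all 6 libraries only (0.841% and 0%). With the replicate number as a block, 7 genes were higher and 1 lower in each same-numbered pair. The transgenic list was the longer of each such pair, and the share of all genes was not computed for this block, so the counts have no background. Deviations of same-numbered libraries from their group means had correlations of -0.0506, 0.0134 and 0.00296. Those of differently numbered libraries ranged from -0.0529 to 0.0493. With 3 libraries per group this cannot decide whether same-numbered animals shared a litter or batch. After division by the bp covered, the gene with higher coverage was Airn, not Cdkn1c, and the lower one was Mcts2, while all genes split into 2.73% higher and 0.761% lower. Peak lists without read totals set no limit on what a missing peak hides.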

Other observations

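Other imprinted genes, 36 of 37 listed ones being matched in the RefSeq table, had fewer end peaks than the 38 genes. An end peak was present at 16, 17 and 13 of the 36 in transgenic replicates 1, 2 and 3, against 7, 14 and 5 in wild-type replicates 1, 2 and 3. As a share this was 44.4%, 47.2% and 36.1% in the transgenic lists, against 19.4%, 38.9% and 13.9% in the wild-type lists. Among all genes it was 38.7%, 37.7% and 27.2% in the transgenic lists, against 21.0%, 37.0% and 9.29% in the wild-type lists. An end peak was present in all 6 lists at 4 of the 36, Zim3, Calcr, Zdbf2 and Begain, where 6.47% of all genes had one. It was present in no list at 14, where 51.8% of all genes had none. Coverage in each transgenic library lay above each wild-type value at 3, Kcnq1, Dcn and Gab1, and below at 0, where 3.6% of all genes lay above and 0.002% below. Dcn, which encodes the matrix proteoglycan decorin, had 299, 278 and 269 bp in the transgenic lists and 0 bp in each wild-type list. Kcnq1, a potassium channel gene, had 590, 493 and 493 bp in the transgenic lists, against 0, 462 and 0 bp in the wild-type lists.

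Genes that set or keep imprints were listed too, 11 in number. They had an end peak at 7, 7 and 5 in the transgenic lists, against 4, 8 and 0 in the wild-type lists. As a share this was 63.6%, 63.6% and 45.5% in the transgenic lists, against 36.4%, 72.7% and 0% in the wild-type lists. Among all genes it was 38.7%, 37.7% and 27.2% in the transgenic lists, against 21.0%, 37.0% and 9.29% in the wild-type lists. An end peak in all 6 lists was present at 0 of the 11, where 6.47% of all genes had one. Zfp445 and Smchd1 had an end peak in no list, where 51.8% of all genes had none. Dnmt1, the maintenance DNA methyltransferase, had 1957, 1922 and 1172 bp covered at its ends in the transgenic lists, against 421, 730 and 0 bp in the wild-type lists. It was the 1 gene of the 11 whose groups did not overlap. Such higher coverage was met at 3.6% of all genes and at 7.46% of genes with an end peak. Zfp57 had 626, 598 and 299 bp in the transgenic lists, against 329, 544 and 0 bp in the wild-type lists, and the groups overlapped. The part of list length in these differences was not tested.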
